A study of Mus musculus with 18 samples.

Results

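The 10 genes described here, H19, Igf2, Igf2r, Grb10, Dlk1, Meg3, Peg3, Zim1, Ndn and Mest, are imprinted genes that have been tied to the resting state of blood stem cells. Their surroundings were followed in an ATAC-seq series of mouse haematopoietic stem cells (HSC) and haematopoietic progenitor cells (HPC). ATAC-seq cuts accessible DNA with the transposase Tn5, and a peak marks a stretch where cuts pile up. A peak was taken as a member where its summit lay in the gene body of 1 of the 10 genes or within 50 kb of it. That rule took 519 of the 597826 rows of 6 deposited peak lists, at 7 loci, since H19 and Igf2, Dlk1 and Meg3, and Peg3 and Zim1 are neighbours. Overlapping rows were merged into regions, and over the 6 lists the members came to 88 of 94178 regions.

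Each of the 6 lists stands for 1 group, and all samples of a group share its list. Of the mice aged 8 weeks, wild type gave 2 samples of HSC and 4 of HPC, and Kmt2c f/f; Vav-Cre gave 2 of each. The mice aged 16 weeks gave HSC only: 4 samples of wild-type mice that had received 5-fluorouracil, at 150 mg/kg in 3 doses spaced 3 weeks apart, and 4 of wild-type mice given the vehicle, phosphate-buffered saline, on the same schedule. KMT2C, also called MLL3, is a histone methyltransferase that acts at enhancers, and Vav-Cre deletes the gene in blood cells as a whole and not in HSC alone. The labels give no markers for the sort, and 5-fluorouracil is a drug that kills dividing cells. With 1 list per group there is no spread between samples, so the comparisons carry no p-value, and a gene that has no region in a list may still be accessible below the threshold of that list. The 16-week lists differ from the 8-week lists in age, handling and length together, and these cannot be told apart.

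An imprinted gene is expressed mainly from the copy of 1 parent. The choice is set by DNA methylation laid down in the egg or the sperm at a control region. The zinc finger protein ZFP57 helps to protect this methylation. At some loci the methylation is read by CTCF, which binds only the unmethylated copy. Igf2, Dlk1, Peg3, Ndn and Mest are known as paternally expressed genes, and H19, Igf2r, Grb10, Meg3 and Zim1 as maternally expressed ones. Several of them form a growth axis. IGF2 is a growth factor, IGF2R clears it from the cell surface, GRB10 dampens signalling of the insulin and IGF receptors, and the H19 RNA restrains the same network. In mouse HSC the H19-Igf2 and Dlk1-Meg3 clusters are known for holding back growth signalling and keeping stem cells at rest, and necdin, the product of Ndn, is known as a brake on cell division. An accessible control region or promoter can come from 1 of the 2 parental copies, and the lists do not tell them apart.

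The stretches before 6 annotated starts are printed because they show the range of accessibility among the members. That of Zim1 was accessible in 3 HSC lists only, that of Ndn in 4 lists, that of Igf2 in 5, that of Igf2r in the 16-week lists only, and that of Meg3 in none. The stretch before the Mest start lay outside the accessible region found near it. Each run holds the 250 bases before the start on the strand of the gene, 5′ to 3′, from RefSeq on GRCm38.p6, and capitals mark CpG dinucleotides, the targets of DNA methylation. The positions are chr7:6696433-6696682 on the minus strand for Zim1, chr7:62348027-62348276 on the plus strand for Ndn, chr7:142658805-142659054 on the minus strand for Igf2, chr17:12769707-12769956 on the minus strand for Igf2r, chr12:109540746-109540995 on the plus strand for Meg3 and chr6:30737800-30738049 on the plus strand for Mest.
Zim1: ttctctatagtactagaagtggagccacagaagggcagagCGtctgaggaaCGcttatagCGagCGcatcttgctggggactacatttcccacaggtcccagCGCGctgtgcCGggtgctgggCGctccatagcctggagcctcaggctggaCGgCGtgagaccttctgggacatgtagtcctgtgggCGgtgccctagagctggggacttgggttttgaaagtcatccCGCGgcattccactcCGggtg
Ndn: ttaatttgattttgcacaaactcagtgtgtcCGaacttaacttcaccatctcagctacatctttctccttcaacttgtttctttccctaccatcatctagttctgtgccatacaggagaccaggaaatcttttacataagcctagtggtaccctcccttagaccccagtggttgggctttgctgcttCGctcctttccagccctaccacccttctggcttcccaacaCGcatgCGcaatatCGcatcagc
Igf2: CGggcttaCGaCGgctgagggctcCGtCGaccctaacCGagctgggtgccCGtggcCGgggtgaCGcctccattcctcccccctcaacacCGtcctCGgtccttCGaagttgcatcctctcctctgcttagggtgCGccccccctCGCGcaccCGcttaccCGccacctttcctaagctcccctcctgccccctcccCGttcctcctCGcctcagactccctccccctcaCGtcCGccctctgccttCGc
Igf2r: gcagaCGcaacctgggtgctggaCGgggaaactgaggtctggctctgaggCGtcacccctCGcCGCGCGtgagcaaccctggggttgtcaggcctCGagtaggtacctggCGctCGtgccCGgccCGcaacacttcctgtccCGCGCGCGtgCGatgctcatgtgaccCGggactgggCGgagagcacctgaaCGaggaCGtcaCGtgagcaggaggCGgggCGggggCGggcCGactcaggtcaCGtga
Meg3: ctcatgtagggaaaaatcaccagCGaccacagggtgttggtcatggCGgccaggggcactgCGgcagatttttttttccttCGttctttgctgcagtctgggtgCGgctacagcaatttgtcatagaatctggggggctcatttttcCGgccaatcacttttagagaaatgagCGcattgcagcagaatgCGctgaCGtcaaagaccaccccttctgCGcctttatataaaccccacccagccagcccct
Mest: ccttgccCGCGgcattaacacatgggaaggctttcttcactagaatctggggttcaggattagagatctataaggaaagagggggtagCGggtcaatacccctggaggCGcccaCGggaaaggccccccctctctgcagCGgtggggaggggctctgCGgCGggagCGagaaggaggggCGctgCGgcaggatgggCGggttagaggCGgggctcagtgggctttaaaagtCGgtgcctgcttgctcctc
The 250 bases held 14 CpG in Zim1, 5 in Ndn, 22 in Igf2, 27 in Igf2r, 10 in Meg3 and 14 in Mest.

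The RefSeq table held 16 promoter windows for 9 of the genes and none for H19, each of 300 bases, from 250 before to 50 after a start. Across all 32851 windows of 27025 genes the median was 7 CpG and 52.7% G and C. The letters TGCCGC, the core motif of ZFP57, were looked for on both strands and stood in 6 of the 16 windows and in 11.6% of all windows. The 6 were those of Zim1, Meg3, Grb10 and Igf2 (the start at chr7:142661271), and 2 of Mest that overlap and hold the same matches. The letters themselves hold a CpG, and the 2 sets of windows were not matched for CpG content. In the printed runs the match of Zim1 began at base 231, that of Meg3 at base 61 and those of Mest at bases 9 and 184, all on the opposite strand. The letters GCCATNTT of YY1, a factor known to bind the Peg3 control region, were in 0 of 16 and in 6.05% of all, those of GATA factors (AGATAA) in 0 and in 11.2%, and those of ETS factors (CCGGAAG) in 0 and in 8.86%. The RUNX letters TGTGGT were in the windows of Dlk1 and Meg3 and in 16.8% of all. These are matches of letters only, and a window without a match says nothing of a factor.

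The number of member regions was lowest in the shortest list and highest in the longest. At 8 weeks, HSC had 33 of 40073 regions in wild type and 46 of 48620 in knockout, and HPC had 52 of 65832 and 42 of 52840. The vehicle list held 81 of 80100 and the 5-fluorouracil list 61 of 71363. As a share of the list this was between 0.0790% in wild-type HPC and 0.101% in vehicle HSC. The fold enrichment of a region, given here as the authors' peak caller wrote it, is its signal over the local background. In wild type its median over the members was 11.7 in HSC, against 14.6 over all regions, and 11.6 in HPC, against 13.7. In knockout it was 13.3 in HSC, against 15.1, and 11.1 in HPC, against 14.2. With vehicle it was 8.08, against 10.2, and with 5-fluorouracil 7.98, against 10.4, so the members had the lower median in every list. When regions were ranked by −log10 p within their own list, the median member stood at percentile 55.2 in wild-type HSC and between 39.4 and 42.0 in the other lists.

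**Figure D1:**
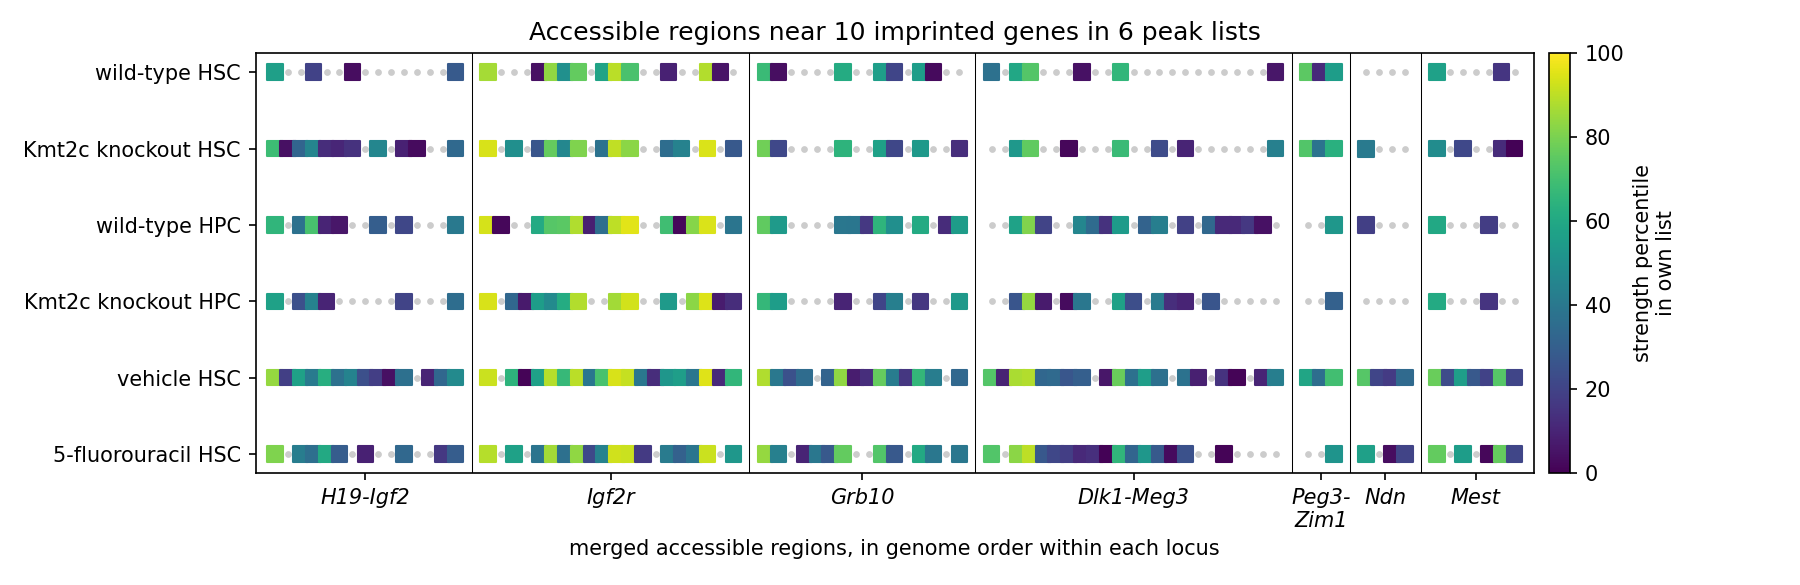
Each column is 1 of the 88 merged regions in genome order within its locus, each row is 1 list, squares are coloured by the region's strength percentile within that list, and grey dots mark lists without the region. The Igf2r locus held strong regions in every list, whereas most Dlk1-Meg3 regions were found in 4 or fewer lists.

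Of the 88 regions, 23 (26.1%, 95% Wilson interval 18.1 to 36.2) were found in all 6 lists, where the share over all regions was 32.2%. Another 15 regions (17.0%) were found in a single list, against 18.1% over all regions. The 23 shared regions lay mainly away from the 10 starts: 1 of them was at the start of a member, Peg3. Where a region was in all 6 lists its strongest summit stayed in place, with a median spread over the lists of 30 bp and 18 of 23 within 50 bp. The widest spread was 721 bp, at a region in the Grb10 body.

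The gene starts were followed list by list. A start was called accessible where a region lay within 1 kb of it, and for H19, whose strand the reference table does not give, within 1 kb of either gene end. In wild-type HSC 4 of the 10 genes had an accessible start (Grb10, Mest, Peg3 and Zim1), where 52.2% of protein-coding and 20.8% of lncRNA genes did. In knockout HSC 6 did (Dlk1, Igf2, Mest, Ndn, Peg3 and Zim1), against 55.7% and 23.4%. Wild-type HPC had 3 (Igf2, Ndn and Peg3), against 59.7% and 27.5%, and knockout HPC had 3 (Dlk1, Igf2 and Peg3), against 54.9% and 23.6%. Vehicle HSC had 8, all but H19 and Meg3, against 65.5% and 33.5%. The 5-fluorouracil list had 7, the same genes without Zim1, against 63.6% and 31.2%.

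Most of the 10 starts were accessible in some lists and not in others. Among 21883 protein-coding genes, 10518 (48.1%) had an accessible start in all 6 lists and 7327 (33.5%) in none. Among the 10 genes, Peg3 had one in all 6 lists, the lncRNA genes H19 and Meg3 had one in none, and the other 7 had one in some lists.

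**Figure D2:**
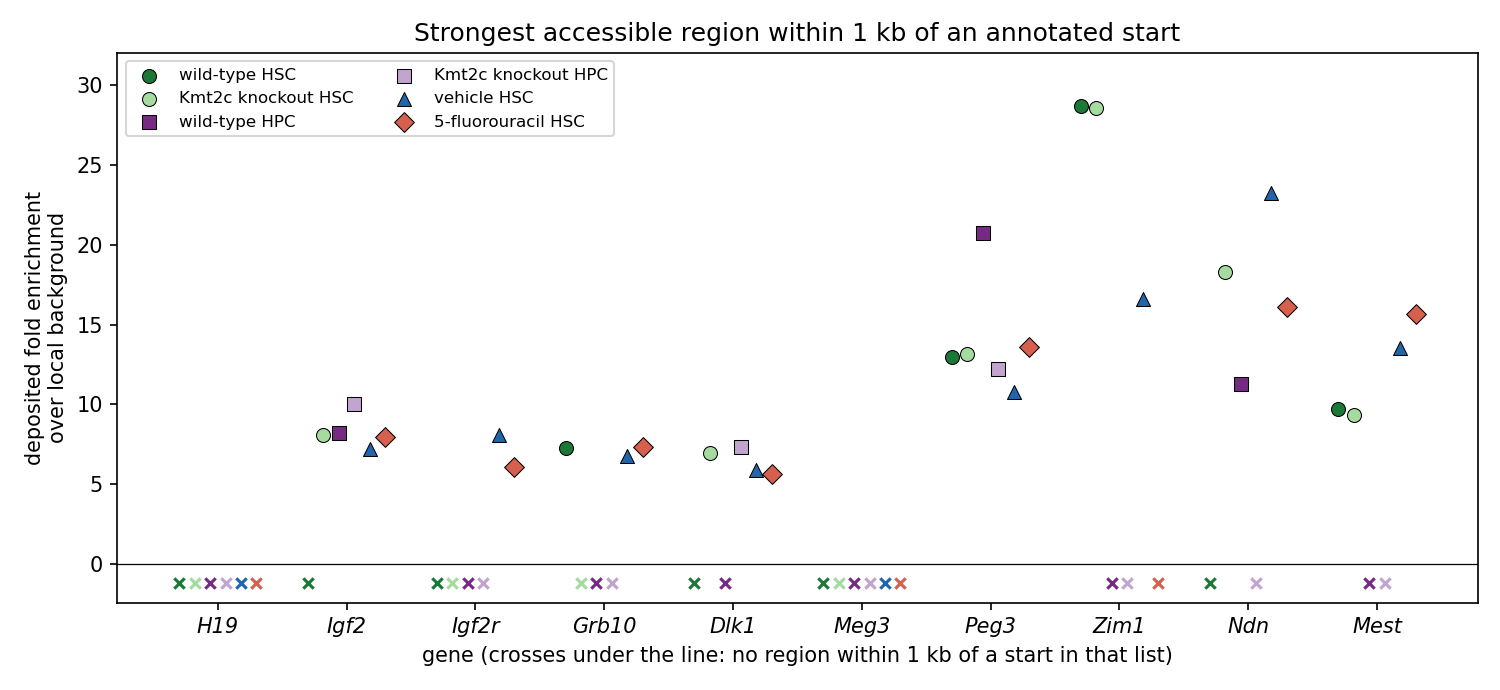
The deposited fold enrichment of the strongest region within 1 kb of an annotated start (vertical axis, ratio to local background) for the 10 genes in the 6 lists, with crosses under the line for lists without such a region. Zim1 reached 28.7 and 28.5 in the 8-week HSC lists and 16.6 in vehicle HSC and had no region in the other 3 lists, while Peg3 had one in all 6.

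Peg3 and Zim1 are neighbouring zinc finger genes on chromosome 7 with opposite parental expression. The start of Zim1 (chr7:6696432) was covered by a region in the 3 HSC lists of mice without 5-fluorouracil and in no other list. Its fold enrichment was 28.7 in wild type, 28.5 in the knockout and 16.6 with vehicle, and its −log10 p was 101, 110 and 208. These values placed it at percentiles 74.9, 72.9 and 58.7 of the 3 lists. The nearest region lay 33.0 kb from that start in either HPC list and 32.7 kb after 5-fluorouracil, so no weaker region remained there in those lists. The merged region was chr7:6696212-6696717, and its strongest summit stood 115 to 116 bp before the start in each of the 3 lists.

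Absence of a region this strong was uncommon. The Zim1 start was singled out after its values were seen, so the shares below describe it and are not a test. In vehicle HSC 33104 regions had a −log10 p at least as high as that at the Zim1 start, and 29 of them (0.0876%) were absent from the 5-fluorouracil list. In wild-type HSC 68 of 10046 such regions (0.677%) were absent from wild-type HPC, and in knockout HSC 321 of 13157 (2.44%) were absent from knockout HPC. When the Zim1 sequence was read, the letters ACTACANNTCCC, the core of the motif of the factor ZNF143, were seen in it and then looked for on both strands in all windows. They stood in the printed run at bases 80 to 91 and, on the opposite strand, at bases 169 to 180, on either side of the summit. Of all 32851 windows 595 (1.81%) held at least 1 match and 80 (0.244%) at least 2, and Zim1 was the 1 window among the 16 of the members with a match.

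Peg3, the partner of Zim1, had a region within 1 kb of its start in each list. Its start region, chr7:6729170-6730580, was in all 6 lists, with a fold enrichment in HSC of 13.003 (wild type), 13.2 (knockout), 10.8 (vehicle) and 13.6 (5-fluorouracil), and in HPC of 20.7 (wild type) and 12.2 (knockout). The germline control region of the locus is known to lie at this start, which Peg3 shares with Usp29 on the other strand. The strongest summit stood 849 to 879 bp downstream of the Peg3 start in all lists. In the 8-week lists the region began 0.554 to 0.701 kb from the start, so within 500 bp Peg3 counted as accessible in the 16-week lists alone. In the 5-fluorouracil list alone the region reached back over the start and covered 161 of the 250 bases before it. A weaker region deeper in the gene, chr7:6728210-6729035, had the same pattern as the Zim1 start, with folds of 7.17, 9.01 and 5.20, but the start region of the other 3 lists began 0.140 to 0.374 kb from it.

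The pattern of the Zim1 start, in all 3 HSC lists without 5-fluorouracil and in no other, was singled out after the values were seen and is given as a description. It was held by 4 of the 88 member regions (4.55%) and by 85 of 94178 regions (0.0903%). The 4 were the Zim1 start, the Peg3 body, a region 10650 bp from the upper end of H19 (chr7:142588410-142589182, folds 8.57, 10.4 and 11.3) and a region in Rian downstream of Meg3 (chr12:109612377-109613320, folds 9.33, 17.8 and 11.01). Among the 85 regions, which lay on 18 chromosomes, the Zim1 start had the highest fold enrichment in both 8-week HSC lists and rank 7 in the vehicle list, where the medians of the 85 were 10.5, 12.7 and 9.53. Of the 4 regions only the Zim1 start kept the pattern when each list was limited to its 40073 strongest regions, and likewise when the weakest 25% of each list were removed. No member region was in both knockout lists and no other (0.0287% of all regions), and none was in the 4 wild-type lists alone (0.847%).

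**Figure D3:**
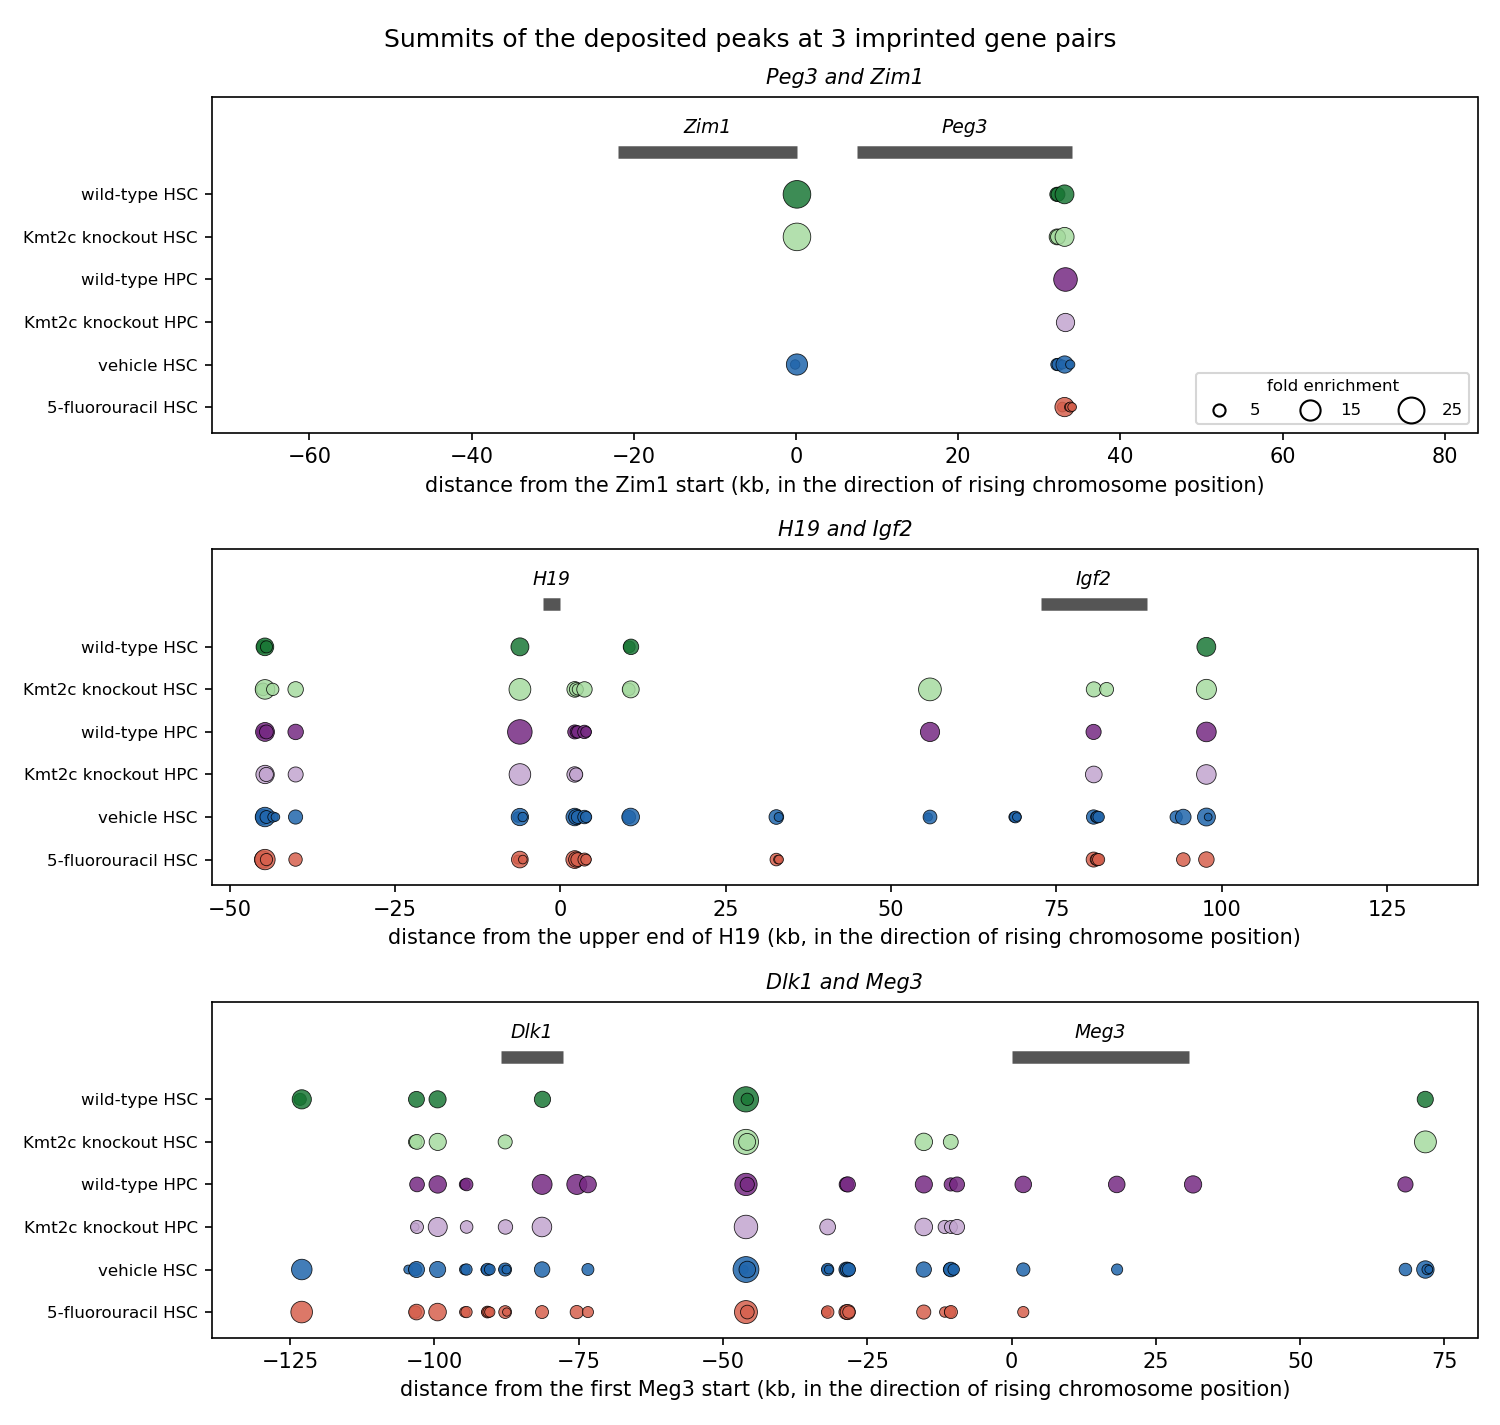
Summits of the deposited peaks in the 6 lists at Peg3-Zim1, H19-Igf2 and Dlk1-Meg3, plotted by distance in kb from the Zim1 start, the upper end of H19 and the first Meg3 start, with circle size for fold enrichment and bars for gene bodies. The circle at the Zim1 start is present in the wild-type, knockout and vehicle HSC rows and absent from the other 3 rows, while the cluster at the Peg3 start is in all 6.

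H19 and Igf2 share enhancers and a control region, at which CTCF binding is known to insulate Igf2 on the maternal copy. No list had a region within 1 kb of either end of H19, an lncRNA gene. Upstream of it, where the control region is known to lie, chr7:142580013-142580901 was found in every list but wild-type HSC. In HPC its fold enrichment was 6.89 in wild type and 8.49 in knockout, and in HSC it was 8.78 in knockout, 11.1 with vehicle and 11.4 with 5-fluorouracil. A companion region, chr7:142581649-142582171, had folds of 6.26 in wild-type HPC, 8.46 in knockout HSC, 6.32 with vehicle and 5.87 with 5-fluorouracil, and was in neither of the other lists. In the 8-week lists both were weak for their list, at percentile 12.7 or below, close to the foot of those lists. On the other side of H19, chr7:142571541-142572594 was in all 6 lists, with folds of 11.7, 17.6, 22.4, 17.2, 10.8 and 10.01 in the order wild-type HSC, its knockout, wild-type HPC, its knockout, vehicle and 5-fluorouracil.

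Igf2, the growth factor of the axis, was accessible at 1 of its 4 annotated starts, chr7:142658804, in every list but wild-type HSC. The fold enrichment was 8.19 in wild-type and 10.04 in knockout HPC, and 8.12 in knockout, 7.23 in vehicle and 7.98 in 5-fluorouracil HSC, and the summits stood from 10 bp before to 30 bp after the start. In wild-type HSC the nearest region was 16.9 kb away. The region ranked at percentile 9.12 of knockout HSC and at 21.3 and 20.3 of the HPC lists, which places it among their weak regions. In knockout HSC alone a second Igf2 start, chr7:142661271, had a region within 1 kb, with a fold of 6.78 at percentile 2.78. Between the genes, chr7:142633730-142634179 had folds of 13.5 in wild-type HPC, 19.2 in knockout HSC and 6.64 with vehicle and was in no other list. Over the whole locus HSC had 4 regions in wild type, 11 in knockout, 14 with vehicle and 9 with 5-fluorouracil, and HPC had 8 in wild type and 6 in knockout.

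Igf2r, the receptor that removes IGF2, had most of its accessible regions away from its start. In that same order of lists it held 11, 13, 15, 15, 19 and 16 regions, and 9 of its 20 merged regions were in all 6. The Igf2r start itself, in the CpG-rich run printed above, was accessible in the 16-week lists only, with folds of 8.07 in vehicle HSC and 6.09 in 5-fluorouracil HSC. The nearest region in the 8-week lists was between 9.75 and 9.79 kb from it. Airn, the antisense lncRNA that silences Igf2r on the paternal copy, starts within the receptor gene, and a region at its start (chr17:12741137-12741803) was in every list but knockout HPC. Its folds were 7.21 in wild-type HPC and 10.7, 8.26, 8.64 and 5.74 in wild-type, knockout, vehicle and 5-fluorouracil HSC. Across all regions 2.41% were in every list but knockout HPC, and the Airn start was the 1 member region of that kind. In the body of Igf2r, chr17:12688474-12689448 was in both knockout lists and both 16-week lists and in neither 8-week wild-type list. Its folds were 17.0 and 14.0 in knockout HSC and HPC, 15.5 with vehicle and 13.9 with 5-fluorouracil. This pattern was held by 2 of the 88 member regions, the other being at the Dlk1 start, and by 0.445% of all regions.

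Grb10, the adaptor that restrains insulin and IGF receptors, had regions in its body in every list and a start that was not always among them. The locus held 7, 7, 10, 7, 14 and 11 regions in the 6 lists. A region near the lower annotated start, chr11:12025415-12026598, was in all lists with folds of 19.6, 20.5, 22.8, 11.7, 16.9 and 16.8. At the upper start, chr11:12037420, the 16-week lists had a broad region over it. Its highest folds, 6.78 in vehicle HSC and 7.34 in 5-fluorouracil HSC, stood 911 and 907 bp downstream of the start. The summits nearest the start had folds of 4.05 and 4.27. Wild-type HSC had a small region inside the same interval, 0.680 kb from the start, with a fold of 7.27 at percentile 2.56. Its summit stood 894 bp downstream. The other 3 lists had no region within 1 kb of this start. The printed motif of ZFP57 stood in the window of this start, which held 45 CpG. A region of the gene was in the 5-fluorouracil list alone, chr11:11939621-11939994, with a fold of 9.26 at percentile 39.7, and 2.76% of all regions were in that list alone. This was the 1 member region of its kind, and the nearest vehicle region lay 1.80 kb away.

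Dlk1 encodes a membrane ligand related to Delta, and Meg3, its maternally expressed neighbour, is an lncRNA. In HSC the locus held 6 regions in wild type, 7 in knockout, 19 with vehicle and 16 with 5-fluorouracil, and in HPC 15 in wild type and 11 in knockout. At the Dlk1 start the folds were low in the lists that had a region, 6.96 and 7.34 in knockout HSC and HPC, 5.87 with vehicle and 5.64 with 5-fluorouracil, and both 8-week wild-type lists had none. In the knockout lists the region stood at percentiles 1.59 and 3.00, close to the foot of each list. Across all regions 0.445% were in the knockout and 16-week lists and in no other. Meg3 had no region within 1 kb of a start in any list. From its first start the nearest region was 45.7 kb away in HSC and 1.88 kb in HPC of wild type, 10.4 kb and 9.28 kb in those of the knockout, and 1.78 kb in both 16-week lists.

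Between Dlk1 and Meg3 lies the control region of the cluster, methylated on the paternal copy. Of the regions within 20 kb before the first Meg3 start, chr12:109525654-109526047 and chr12:109530180-109530669 were in every list but wild-type HSC. The former had folds of 10.6 and 11.3 in wild-type and knockout HPC, 11.1 in knockout HSC, 8.31 with vehicle and 7.03 with 5-fluorouracil. The latter had 6.02, 5.78, 7.85, 7.56 and 5.92 in these lists. Beside them, chr12:109531379-109531747 was in both HPC lists alone, with folds of 7.91 in wild type and 8.09 in knockout, and it was the 1 member region with that pattern, which 4.02% of all regions had. The region of highest fold in the locus, chr12:109494574-109495494, was in all 6 lists, with folds of 23.8, 23.4, 18.4, 20.5, 24.99 and 19.6, and lies 42.2 kb downstream of the Dlk1 start. Downstream of Meg3 the wild-type HPC list had regions in Rtl1 and Rian with folds of 10.8 and 8.25, where the knockout HPC list had none within 40.5 kb. Both were weak, at percentiles 16.0 and 4.44 of wild-type HPC, and 25.9% of all regions of that list were absent from knockout HPC. The region in Rian was also in vehicle HSC, with a fold of 5.42.

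In all, 7 of the 88 member regions (7.95%) were in every list but wild-type HSC, where 5.26% of all regions were. Wild-type HSC was the shortest list. These 7 included the Igf2 start, the H19 control region and both Dlk1-Meg3 regions named above.

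Ndn encodes necdin and lies on chromosome 7 in a cluster with Magel2. Its start was accessible in knockout HSC, wild-type HPC, vehicle HSC and 5-fluorouracil HSC, with folds of 18.3, 11.3, 23.2 and 16.1. The summit stood 15 to 32 bp downstream of the start in these 4 lists. Wild-type HSC and knockout HPC had no region in the whole Ndn locus, and the nearest regions lay 51.9 and 52.0 kb away. An empty locus was not rare: of 21883 protein-coding genes, 18.2% had no region in or near them in wild-type HSC and 17.5% in knockout HPC. In the knockout HSC list the Ndn start stood at percentile 41.0 and in wild-type HPC at 18.4. The start of Magel2 and a further region were found in the 16-week lists alone, with folds of 6.51 and 9.42 in vehicle HSC and 4.50 and 7.08 in 5-fluorouracil HSC.

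Mest encodes a protein of the hydrolase fold. A region before its start, chr6:30736756-30737672, was in the 4 HSC lists and in neither HPC list, and 1.83% of all regions had this pattern. Its folds were 9.70 in wild type, 9.35 in the knockout, 13.5 with vehicle and 15.6 with 5-fluorouracil. In the 8-week lists it stood at percentiles 15.6 and 12.2, and it was lost from both when the weakest 25% of each list were removed. It was the 1 member region with this pattern, and its summit stood 899 to 905 bp before the start at chr6:30738050. In the HPC lists the nearest region was another one, chr6:30735220-30735793, between the 2 annotated Mest starts, with folds of 8.14 in wild type and 9.99 in knockout. That region was also in vehicle HSC at 4.30, and in neither 8-week HSC list. In 5-fluorouracil HSC a weak region of fold 2.92, chr6:30735624-30735793, overlapped the vehicle interval but neither HPC interval. It was merged with the HPC regions through the vehicle interval alone. As merged over the 6 lists, 3 of the 88 regions were in all lists but those of 8-week HSC, against 4.42% of all regions.

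The comparison of Kmt2c knockout with wild type asks which regions were found with the methyltransferase lost or kept. In HSC, 17 of the 46 member regions of the knockout list (37.0%, Wilson interval 24.5 to 51.4) were absent from wild type, where 25.9% of all knockout HSC regions were. They lay 7 at H19-Igf2, 3 each at Igf2r and Dlk1-Meg3, 2 at Mest and 1 each at Grb10 and Ndn. The highest folds among them were 19.2 between H19 and Igf2, 18.3 at the Ndn start and 17.0 in the Igf2r body. As many as 16 of the 17 were also in the vehicle list of wild-type mice, as were 93.3% of all knockout HSC regions absent from wild-type HSC. The remaining region was the Igf2 start at chr7:142661271. In the other direction 4 of 33 wild-type HSC regions (12.1%, 4.82 to 27.3) were absent from knockout, against 9.99% of all, and all 4 were in the vehicle list, against 96.0%. These were the Grb10 start region, 2 regions at Dlk1-Meg3 and 1 in Airn.

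In HPC more regions were absent from the knockout list than from the wild-type list, and the wild-type list was the longer one. Of 52 member regions of wild-type HPC, 18 (34.6%, 23.2 to 48.2) were absent from knockout HPC, where 25.9% of all were. They lay 7 at Dlk1-Meg3, 4 each at Igf2r and Grb10, 2 at H19-Igf2 and 1 at Ndn, and 14 of them were also in vehicle HSC, against 68.9% of all such regions. Of 42 member regions of knockout HPC, 7 (16.7%, 8.32 to 30.6) were absent from wild-type HPC, where 6.96% of all were, and 6 of the 7 were in vehicle HSC, against 62.0%. The 7 were 3 at Igf2r, 3 at Dlk1-Meg3, with the Dlk1 start among them, and 1 at Grb10. With both HPC lists limited to the length of the shorter, the counts turned. Then 6 of 37 wild-type regions were absent from the knockout and 10 of 42 knockout regions from wild type, against 13.5% and 12.7% of all. In HSC the same limit gave 8 of 35 knockout regions absent from wild type and 6 of 33 the other way, against 15.3% and 15.1% of all. The Grb10 region counted in both directions, since its intervals in the 2 lists lay 0.266 kb apart. The Ndn start changed sides with the cell type: it was in the knockout and not the wild-type list of HSC and in the wild-type and not the knockout list of HPC. Without the weakest 25% of each list the Ndn start was no longer in wild-type HPC, so it was then in neither HPC list. The Dlk1 start was in the knockout and not the wild-type list of both cell types, at or below percentile 3.00 in each.

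After 5-fluorouracil, 3 of 61 member regions (4.92%, 1.69 to 13.5) were absent from the vehicle list, against 5.61% of all. These were the Grb10 region of fold 9.26 and 2 regions at Dlk1-Meg3 of folds 6.08 and 3.53. In the other direction 22 of 81 vehicle regions (27.2%, 18.7 to 37.7) were absent from the 5-fluorouracil list, where 16.2% of all vehicle regions were. They were spread over the loci, 5 each at H19-Igf2 and Dlk1-Meg3, 4 at Grb10, 3 at Igf2r, 2 each at Peg3-Zim1 and Mest and 1 at Ndn. The median strength percentile of the 22 was 14.5, and of all such vehicle regions 11.2. Of the 22, 5 were also in the 8-week wild-type HSC list, where 4.63% of all such vehicle regions were, and 5 were in wild-type HPC, against 27.8%. The 5 in 8-week HSC were the Zim1 start, the Peg3 body, the region near H19, the region in Rian and a region in Airn. In total 10 member regions were in the vehicle list and no other (8.74% of all regions), and 8 were in the 2 16-week lists and no other (10.8%).

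**Figure D4:**
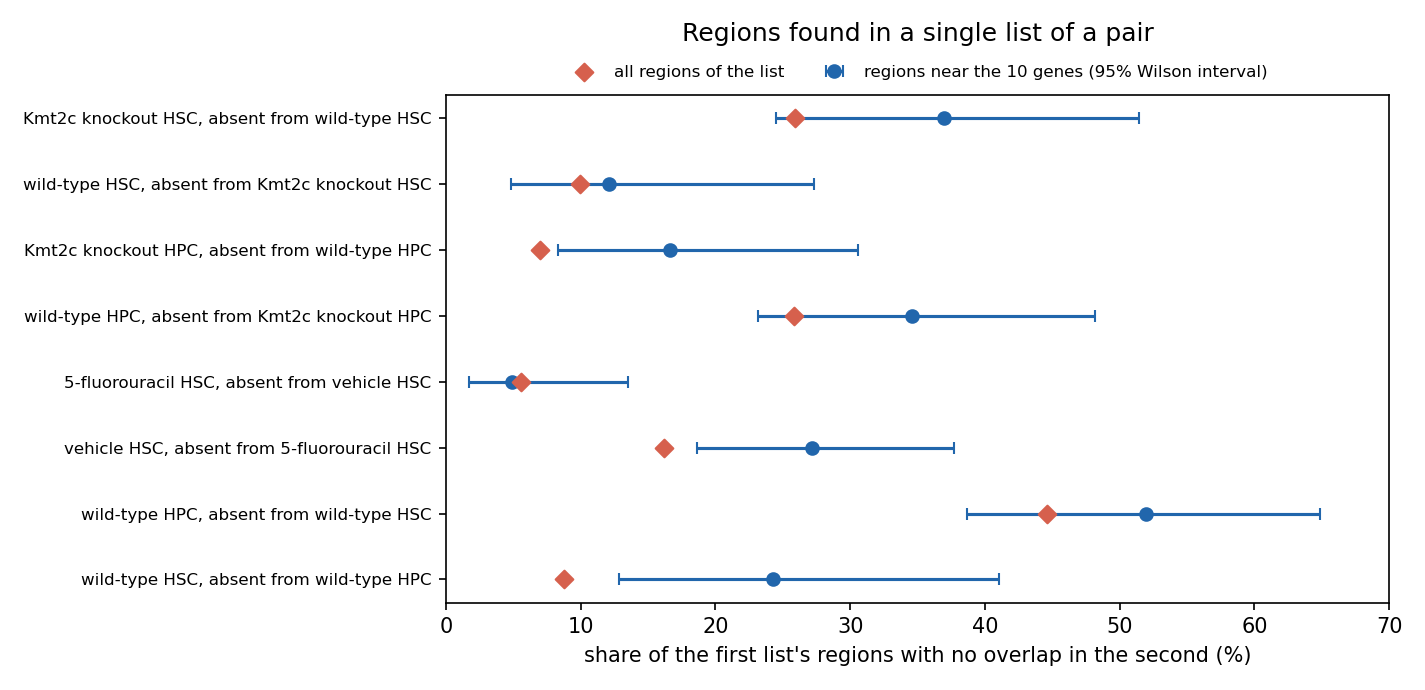
The share, in percent, of a list's regions that had no overlap in a second list, for regions near the 10 genes (circles, with 95% Wilson intervals that cover counting error only) and for all regions of the list (diamonds). The diamond lies below the circle in 7 of the 8 comparisons.

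Between the cell types in wild type, 27 of 52 HPC regions (51.9%, 38.7 to 64.9) were absent from HSC, against 44.6% of all, and 11 of the 27 lay at Dlk1-Meg3. In vehicle HSC 22 of the 27 were found, against 66.5% of all such regions. Of 33 wild-type HSC regions, 8 (24.2%, 12.8 to 41.0) were absent from HPC, against 8.77% of all. These were 2 each at Peg3-Zim1 and Dlk1-Meg3 and 1 each at H19-Igf2, Igf2r, Grb10 and Mest, and all 8 were in vehicle HSC, against 97.2% of all such regions. The highest fold among them was at the Zim1 start. With both lists limited to the length of the shorter, 4 of 28 HPC regions were absent from HSC, against 24.3% of all. The other way it was 9 of 33, against 23.7%, so these counts turned too. Neighbouring regions share a locus and are not independent, so the intervals, which count regions as independent, are too narrow.

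Another 51 imprinted genes of the RefSeq table were looked at for comparison, of which 21 (41.2%) had an accessible start in all 6 lists, 14 (27.5%) in none and 16 in some. Those in all 6 included Usp29, the divergent partner of Peg3, Kcnq1ot1, Ube3a, Sfmbt2 and Copg2, and those in none included Dio3, Rtl1, Rian and Mirg of the Dlk1-Meg3 cluster, Nnat and Ins2. The number was 24 (47.1%) in wild-type HSC and 30 (58.8%) in wild-type HPC, against 52.2% and 59.7% of all protein-coding genes. It was 27 (52.9%) in either knockout list, against 55.7% in HSC and 54.9% in HPC. With vehicle it was 37 (72.5%), against 65.5%, and with 5-fluorouracil 36 (70.6%), against 63.6%. Of all protein-coding genes 48.1% had an accessible start in all 6 lists and 33.5% in none. So 1 of the 10 genes and 21 of the 51 had an accessible start in all lists, a difference that was not tested and in which Peg3 counts by the distance of 1 kb.

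The labels' cell types were set against markers by the same rule for starts. Of 12 genes of HSC and early progenitors, such as Kit, Hlf and Mecom, between 8 (wild-type HSC) and 12 (vehicle) had an accessible start, and Ly6a had one with vehicle alone. Cd48, which marks progenitors, and Slamf1, which marks HSC, both had one in each HPC and 16-week list and in neither 8-week HSC list, so Slamf1 did not follow the labels. Of 8 genes of later progenitors 4 to 7 did, with Elane in none. Of macrophage genes 1 or 2 of 4 did (Mertk in all lists, C1qa and Marco in none), of T cell genes 0 or 1 of 3 (Cd4), and of stromal and endothelial genes 1 to 4 of 5. The part of other cell types in the results above was not tested.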

How the data were processed

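Accessible regions near 10 imprinted genes were followed in 6 peak lists of ATAC-seq on 18 samples of mouse HSC and HPC. The submitters' processing notes name the aligner Bowtie2, the peak caller MACS2 and the build mm10 (GRCm38). No source used here gives their versions, the way samples of a group were combined or the filter of the lists. Each deposited row holds an interval, a score, a fold enrichment (the ratio of signal to local background), a −log10 p and a summit offset in bp, all written by the authors' peak caller. The deposited score was not used. The lowest deposited −log10 p was just above 2.00 in each list.

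Rows that overlapped by at least 1 bp were merged into regions within a list, with the highest fold and −log10 p of their rows, and regions were merged over the 6 lists to follow them. A region was absent from another list where it overlapped no region there. Gene bodies, starts and promoter sequences came from RefSeq tables of GRCm38.p6. H19 has no entry in the promoter table, so both of its ends were used. The tables hold no exons, so exon and intron positions were not analysed here. Strength percentiles order regions by −log10 p within a list, and where 2 lists differ in length a shift of rank between them shows no change. Read depth is unknown, and longer lists hold more weak regions. Shares carry 95% Wilson intervals that cover counting error only. No test was possible with 1 list per group. All 10 genes and every comparison are named. The regions named were picked as lying at starts or known control regions, for a high fold, or for their pattern over the lists. Not every region of these kinds is named. Some regions and marker genes are not reported here. The genes, motifs and lists of other imprinted genes and markers were chosen with earlier results of these data known. The pattern of the Zim1 start, its alternatives and the ZNF143 letters were chosen after the values were seen. Merging and overlap were tested on simulated data. Python 3.11.15, numpy 2.4.6, pandas 2.3.3, scipy 1.17.1 and matplotlib 3.10.9 were used.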

Additional observations from a re-analysis of the deposited data

How the results depend on the processing

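Each list is a single pooled set of peaks of unknown depth, so leaving out a sample was not possible, and counts that depend on weak regions move with the threshold. Of 70 values under other settings, 37 stayed within 1.5 times the reported count and 33 did not, and the cause was not tested. No paired analysis was possible because each group has 1 pooled list and its columns carry no replicate number.

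Each list was also limited to the same number of its strongest regions, the length of the shorter list compared. There were then 28 regions near the genes in wild-type HPC, 31 with vehicle and 25 with 5-fluorouracil. In all 6 lists there were 13 of 47 merged regions near the genes, against 43.9% of all regions. In the same setting 8 of 35 knockout HSC regions were absent from wild type, against 15.3% of all regions. The other way it was 6 of 33, against 15.1%. Of vehicle regions 14 of 71 were absent from 5-fluorouracil, against 9.41%, and 4 of 61 the other way, against 8.93%. The larger count changed sides in the other comparisons: 6 wild-type HPC regions were absent from the knockout and 10 the other way, and 4 wild-type HPC regions were absent from HSC and 9 the other way. With the weakest 25% of each list removed, 21 regions near the genes were left in wild-type HSC and 27 in knockout HPC. In all 6 lists there were 15 of 62 merged regions near the genes, against 35.1% of all regions. In that setting 11 of 31 knockout HSC regions were absent from wild type, against 22.3% of all regions. The other way it was 1 of 21, against 5.77%. In HPC, 1 of 27 knockout regions was absent from wild type, against 3.45%, and 10 of 35 the other way, against 22.7%. Of 44 regions of 5-fluorouracil, 1 was absent from vehicle, against 2.495% of all, and 14 of 57 the other way, against 13.3%. Of 35 wild-type HPC regions, 16 were absent from HSC, against 43.7%, and 2 of 21 the other way, against 7.55%. Accessible starts were then 2 in wild-type HSC, 3 in its knockout, 1 in wild-type HPC (Peg3) and 1 in its knockout (Peg3). The share of all genes in this setting is not given here, so the fall cannot be set against it. The pattern of the Zim1 start was held by 1 region, that of Zim1, under either setting, where 0.747% of all regions had it with equal lists and 0.0927% without the weakest.

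With a window of 20 kb, 2 of 23 wild-type HSC regions were absent from the knockout, against 9.99% of all. From wild-type HPC 5 of 23 were absent, against 8.77%. With windows of 200 bp around summits in place of regions, 9 of 44 wild-type HSC windows were absent from the knockout, against 14.9% of all. From wild-type HPC 13 of 44 were absent, against 13.5%. Of the 67 such windows of wild-type HPC, 28 were absent from the knockout, against 31.4% of all. Of 119 windows of 5-fluorouracil, 7 were absent from vehicle, against 9.11%. Of 158 windows of vehicle, 49 were absent from 5-fluorouracil, against 18.5%. With starts called within 500 bp, 2 genes had one in wild-type HSC (Mest and Zim1), 4 in its knockout, and Peg3 had none in any 8-week list. The share of all genes within 500 bp is not given here either.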
